A study of Gallus gallus with 8 samples.

Results

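The Krt78L features are the 8 entries of the count tables whose names start with Krt78L, out of 24902 gene features. They are Krt78L1, Krt78L2, Krt78L3, Krt78L4, Krt78LT, Krt78LC1, Krt78LC2 and Krt78LC3. The names were set by the authors and liken the features to keratin 78, a type II keratin. The sources used here do not explain the letters C and T.

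RNA was measured in cultured primary chicken (Gallus gallus) skin cells in 4 groups. The skin equivalents held primary keratinocytes that had differentiated in a culture of 3 dimensions (3 libraries). The subconfluent keratinocytes were a monolayer before confluence (1 library), the fibroblasts were a confluent culture (1 library), and the confluent monolayers were keratinocytes at confluence (3 libraries). No agent, genotype, strain, sex or age of the birds is given for any group. Whether the libraries of a group stem from different birds or cultures is also not stated. The p-values therefore speak only of the spread among the libraries at hand, and that spread may be technical. In the titles, 20 stands with replicate 1, 34 with replicate 2 and 56 with replicate 3 of both the skin equivalents and the monolayers, and the subconfluent library shares the 20. Skin equivalent 1 is marked d7 and each monolayer d8, and the remaining titles have no such mark. The mark wo is found with 34 and 56 but not with 20, so skin equivalent 1, monolayer 1 and the subconfluent library lack it. The meaning of all these marks is not stated. The numbers 20, 34 and 56 and the mark wo are spread alike over skin equivalents and monolayers, whereas what d7 and d8 mark cannot be told apart from the culture form.

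Keratins are the intermediate filament proteins of epithelial cells. A type II keratin pairs with a type I keratin, and neither forms filaments alone. Basal epidermal cells typically carry keratin 5 with keratin 14, and cells that leave the basal layer switch to other pairs. In mouse, keratin 78 is known as a type II keratin of the suprabasal layers of stratified epithelia. Here the names Krt5L, Krt7, Krt8, Krt80 and Krt84L count as the other type II keratins, and Krt9L, Krt12, Krt14L, Krt15, Krt18, Krt19, Krt20 and Krt23 as type I. Krt222 was put in neither list but is included where other keratins are counted.

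Gene counts ranged from 27329706 to 36728801 per library. Levels are given as CPM, counts scaled to a common library size with the TMM method over all 8 libraries, and 3 counts correspond to 0.0807 to 0.117 CPM. Fragments that mapped to several places made up 7.06% to 8.66% in skin equivalents, 5.46% in the subconfluent library, 3.26% in fibroblasts and 4.45% to 4.59% in monolayers. The row names are those of counting that leaves such fragments out, so the split of counts among alike family members is uncertain, and its part in the results was not tested. Of 11 fixed keratinocyte markers, 5 were deposited names (Krt5L1, Krt5L2, Krt14L1, Krt14L2 and Krt15). The sum over the 5 was 20850 to 29520 CPM in skin equivalents, 35650 in the subconfluent library, 5.33 in fibroblasts and 9432 to 12620 in monolayers. The 6 markers of suprabasal or cornified cells, all deposited names, summed to 4606 to 11640 CPM in skin equivalents, 976 in the subconfluent library, 0.154 in fibroblasts and 233.5 to 692 in monolayers. None of the fixed markers of fibroblasts (0 of 11), melanocytes (0 of 5), endothelium (0 of 3), leukocytes (0 of 3) or muscle (0 of 3) was a deposited name, so the presence of these cells was not checked. In such bulk libraries, fewer cells of a type and less RNA per cell cannot be told apart.

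In skin equivalents the family held several percent of all gene counts, nearly all of them in 2 of its 8 members, Krt78L2 and Krt78L3, which both rose. Krt78L1, the member that held most of the family's counts in confluent monolayers, fell. Krt78LT was read almost only in skin equivalents, and Krt78L4 and Krt78LC1 stood high in skin equivalent 2. In fibroblasts the 8 features had 1 count in all.

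**Figure D1:**
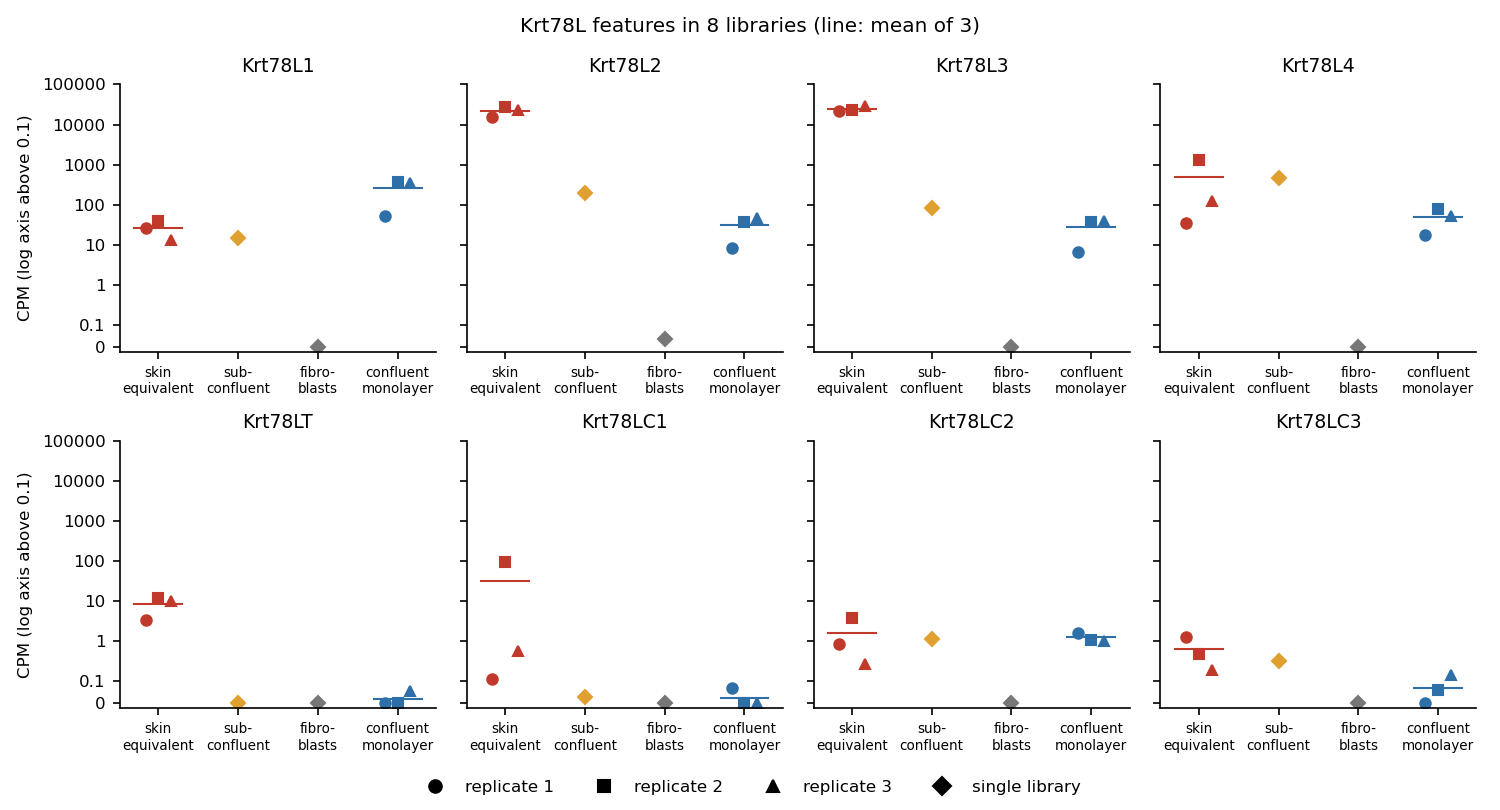
CPM of each Krt78L feature (y axis, logarithmic above 0.1 CPM and linear below) in the 4 culture groups (x axis); points are libraries, shaped by replicate, and lines are means of 3. Krt78L2 and Krt78L3 lie between 15498 and 29087 CPM in skin equivalents, whereas Krt78L1 lies highest in monolayers and Krt78L4 overlaps between skin equivalents and monolayers.

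As a family, the Krt78L features took 3.40%, 4.80% and 4.88% of gene counts in skin equivalents 1 to 3, against 0.00925%, 0.0603% and 0.0550% in monolayers 1 to 3. The subconfluent library lay at 0.0760%, above each monolayer and far below each skin equivalent. The mean share was 4.36% ± 0.832 in skin equivalents and 0.0415% ± 0.0281 in monolayers (SD, n = 3 each). A two-sided exact permutation test on the shares gave p = 0.1, the smallest p that 3 against 3 libraries allow. Without Krt78L2 and Krt78L3, the other 6 members together held 0.00601%, 0.134% and 0.0136% in skin equivalents 1 to 3 and 0.00766%, 0.0517% and 0.0451% in monolayers 1 to 3, and these ranges overlapped (exact permutation p = 0.9).

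Features were compared between skin equivalents and monolayers with the edgeR quasi-likelihood test in a fit of those 6 libraries, with p-values adjusted over all 13230 features tested and a threshold of 0.05. Of the 8 members, 6 had enough counts to be tested. Higher levels were called for 3 (Krt78L2, Krt78L3 and Krt78LT), a lower level for 1 (Krt78L1), and Krt78L4 and Krt78LC2 did not pass. Krt78LT passed the filter on low counts through the skin equivalents, so for it only a rise could be called. Among all features tested, 25.9% were called higher, 23.6% lower and 49.5% in either direction. With scaling by total counts alone, 19.0% were called higher and 29.6% lower, the median of all log2 fold changes was -0.18 instead of 0.08, and the calls of the Krt78L members were the same. The median log2 fold change of the 6 tested members was 5.85, or 5.98 with the count ratio of Krt78LT, given below, in place of its fitted value.

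Krt78L2 had 15498, 26950 and 22791 CPM in skin equivalents 1 to 3, against 8.18, 37.8 and 46.8 CPM in monolayers 1 to 3. Every skin equivalent was far above every monolayer, and among the monolayers replicate 1 was low. The means were 21746 ± 5797 CPM in skin equivalents and 30.9 ± 20.2 CPM in monolayers (SD, n = 3 each), and the log2 fold change was 9.46 ± 0.86 (standard error, adjusted p = 2.72e-04).

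Krt78L3 had 21911, 22858 and 29087 CPM in skin equivalents 1 to 3, against 6.77, 37.4 and 39.7 CPM in monolayers 1 to 3. The groups again did not overlap, as was the case for 61.4% of all features tested, and monolayer 1 was again the low one. The log2 fold change was 9.79 ± 0.87 (adjusted p = 2.57e-04). Among the skin equivalents the highest level was 1.33 times the lowest for Krt78L3 and 1.74 times for Krt78L2, near the median of 1.47 over the 12551 features tested with over 3 counts in each skin equivalent. Among the monolayers the same ratio was 5.87 for Krt78L3 and 5.72 for Krt78L2, against a median of 1.52 over 12865 features.

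The balance of Krt78L2 to Krt78L3 within a library does not depend on scaling. The ratio of their counts was 0.707, 1.18 and 0.784 in skin equivalents 1 to 3 and 1.21, 1.01 and 1.18 in monolayers 1 to 3. The groups overlapped, and their mean log2 ratios of -0.20 ± 0.39 in skin equivalents and 0.18 ± 0.14 in monolayers were not told apart (exact permutation p = 0.3, n = 3 each). In the subconfluent library the ratio was 2.35 (95% Clopper-Pearson interval 2.25 to 2.46), above that of each of the other 6 keratinocyte libraries. These intervals come from the reads of a single library, so they hold counting error alone and no spread between libraries. Without molecular identifiers in the reads, even this error may be understated.

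Krt78LT was read at a low level. It had 3.37, 11.8 and 9.78 CPM in skin equivalents 1 to 3 (88, 301 and 255 counts), and 0, 0 and 0.0573 CPM in monolayers 1 to 3 (0, 0 and 2 counts). The feature passed the filter on low counts through the skin equivalents, so only a rise could be called. The 644 counts in skin equivalents against 2 in monolayers made a ratio of 409 after scaling, with a 95% counting interval of 113 to 3380 (edgeR adjusted p = 6.07e-04). Without monolayer 3, the only monolayer with counts, the mean of Krt78LT in skin equivalents was at least 87.9-fold higher. This takes 3 counts in each of the other monolayers as the floor. Skin equivalent 1, at 3.37 CPM, lay below that mean.

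Krt78L1 went the other way. It had 25.7, 39.9 and 12.8 CPM in skin equivalents 1 to 3, against 52.7, 375 and 341 CPM in monolayers 1 to 3. The groups did not overlap, although monolayer 1 lay much closer to the skin equivalents than to monolayers 2 and 3. The log2 fold change was -3.28 ± 0.76 (adjusted p = 0.0105), and it was -3.88 without monolayer 1. The highest monolayer was 7.11 times the lowest, and 1.61% of the 12865 features had a ratio at least as large.

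Krt78L4 had 35.0, 1284 and 122 CPM in skin equivalents 1 to 3, against 17.6, 79.9 and 52.0 CPM in monolayers 1 to 3. Skin equivalent 2 stood far above the rest, and skin equivalent 1 lay below monolayers 2 and 3. The log2 fold change of 3.28 did not pass the test (95% interval 0.264 to 6.30, adjusted p = 0.0689). With skin equivalent 2 left out it was 0.66 (edgeR adjusted p = 0.481). With skin equivalent 1 left out it was 3.83 and was called (edgeR adjusted p = 0.0299), as it was by DESeq2 (3.16, adjusted p = 0.0327). The ratio of the highest to the lowest skin equivalent was 36.7 for Krt78L4, a value reached by 25 of the 12551 features (0.199%).

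The 3 features with a C in their names had few counts, except for Krt78LC1 in skin equivalent 2. Krt78LC1 had 3, 2354 and 15 counts in skin equivalents 1 to 3, against 2, 0 and 0 counts in monolayers 1 to 3. Its level of 92.0 CPM in skin equivalent 2 was therefore carried by 1 library, and the feature did not enter the test. Krt78LC2 had 0.843, 3.79 and 0.269 CPM in skin equivalents 1 to 3 and 1.62, 1.08 and 1.00 CPM in monolayers 1 to 3. These values overlapped, the log2 fold change was 0.41 (95% interval -1.59 to 2.42, adjusted p = 0.715), and its sign was negative without skin equivalent 2. Krt78LC3 had 33, 12 and 5 counts in skin equivalents 1 to 3 and 0, 2 and 5 counts in monolayers 1 to 3, and was not tested.

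**Figure D2:**
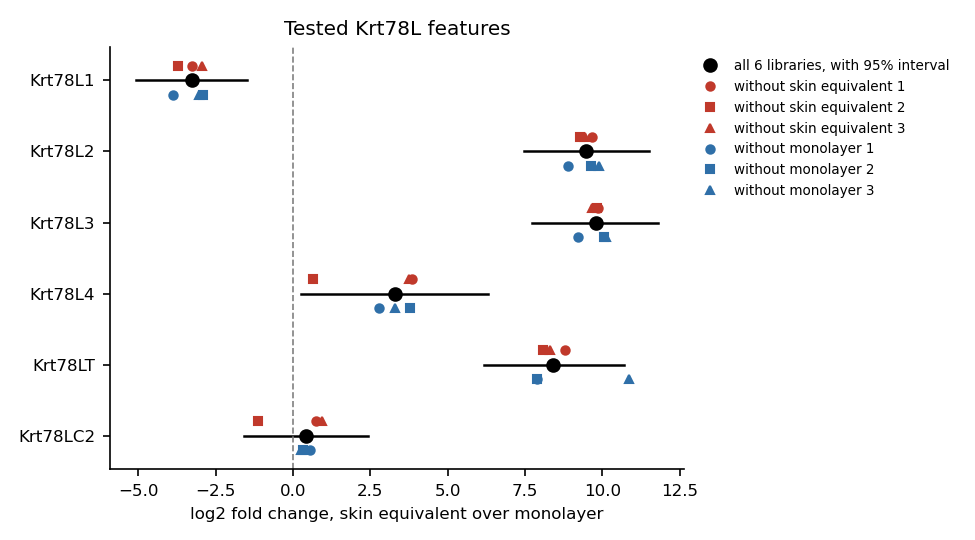
Log2 fold change of skin equivalents over monolayers (x axis) for the 6 tested Krt78L features (rows), with its 95% interval (black line) and the values with 1 library left out (colours by group, shapes by replicate). The 6 values of Krt78L1 with a library left out lie between -3.88 and -2.92, and that of Krt78L4 drops to 0.66 without skin equivalent 2, while the fitted values of Krt78LT rest on 2 counts in the monolayers.

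Skin equivalent 2 was the highest of the 3 for 5 of the 6 tested members, which all had over 3 counts in each skin equivalent (Krt78L1, Krt78L2, Krt78L4, Krt78LT and Krt78LC2). With the same condition on counts, skin equivalent 2 was highest for 13 of 21 other keratins and for 30.7% of 12551 features. Krt78LC3, not tested, was highest in skin equivalent 1 (1.26 CPM). Corneous beta-proteins build scales, claws and feathers. Of those with names ending in -S or -C, all 35 of 35 were highest in skin equivalent 2. Their summed share of gene counts was 0.0387%, 0.967% and 0.0867% in skin equivalents 1 to 3. That of the 15 names ending in -K was 1.449%, 1.95% and 2.205%, highest in skin equivalent 3. The part of the -S and -C names in the levels of Krt78L4 and Krt78LC1 was not tested. Monolayer 1 was the lowest of the 3 for Krt78L1, Krt78L2, Krt78L3 and Krt78L4, which are 4 of the 5 members with over 3 counts in each monolayer. With that condition, it was also the lowest for 10 of 23 other keratins and for 46.5% of 12865 features.

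The make-up of the family's counts differed between the culture forms. Counts were not divided by transcript length, so the shares below can be compared between libraries but do not rank the members by abundance. Krt78L2 and Krt78L3 together held 99.8%, 97.2% and 99.7% of the family's counts in skin equivalents 1 to 3, against 17.2%, 14.2% and 18.0% in monolayers 1 to 3. Krt78L1 held 0.0570% ± 0.0284 in skin equivalents and 67.4% ± 5.88 in monolayers (SD, n = 3 each). Krt78L4 held 0.945% ± 1.35 in skin equivalents and 15.4% ± 4.75 in monolayers. None of these shares overlapped between the groups. They are parts of the same total, so high counts of Krt78L2 and Krt78L3 lower the shares of the other members. In CPM, Krt78L4 overlapped between the groups, as given above.

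The subconfluent library had yet another make-up. Krt78L4 held 61.5% of its 27921 family counts (95% Clopper-Pearson interval 61.0% to 62.1%), Krt78L2 25.5% (25.0% to 26.0%), Krt78L3 10.8% (10.5% to 11.2%) and Krt78L1 1.95% (1.79% to 2.12%). The share of Krt78L4 was higher there, and that of Krt78L1 lower, than in each of the 3 monolayers, where Krt78L4 held 10.8% to 20.3% and Krt78L1 held 60.6% to 71%.

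**Figure D3:**
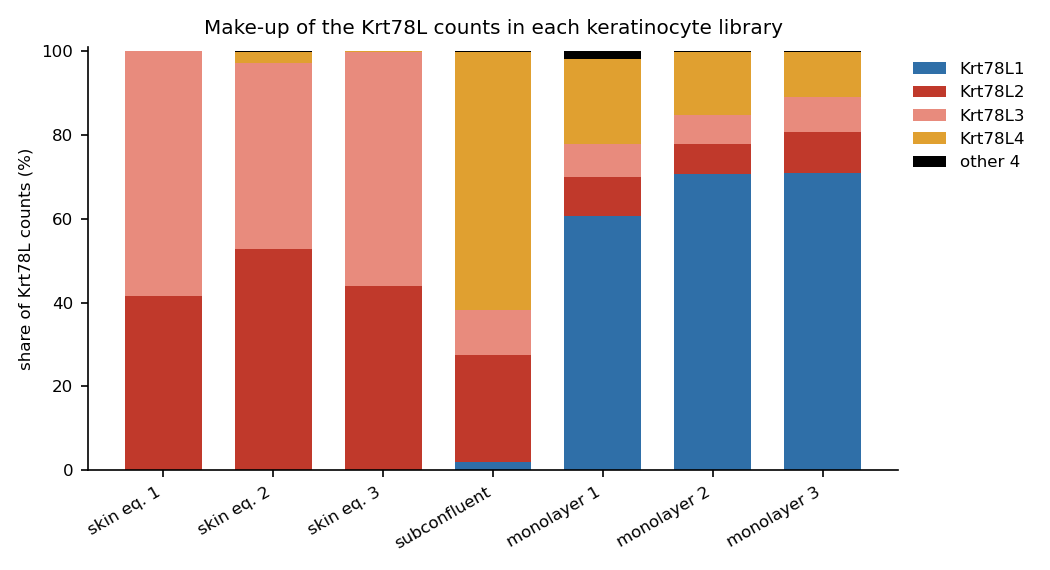
Share of the Krt78L counts (y axis, percent) held by each feature in the 7 keratinocyte libraries (x axis), as stacked bars; the black part is the sum of Krt78LT and the 3 C features. Krt78L2 and Krt78L3 fill 97.2% to 99.8% of the bars of the skin equivalents, Krt78L4 61.5% of the subconfluent bar and Krt78L1 60.6% to 71% of the monolayer bars.

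The 3 libraries whose titles carry the code 20 gave the 3 culture forms side by side, with 1 library each and no replicate check. Krt78L2 had 15498 CPM in skin equivalent 1, 191 CPM in the subconfluent library and 8.18 CPM in monolayer 1. Krt78L3 had 21911, 81.4 and 6.77 CPM in the same order, and both features thus stood between the other culture forms in the subconfluent library. Krt78L4 had 35.0, 462 and 17.6 CPM in that order, highest before confluence. Krt78L1 had 25.7, 14.6 and 52.7 CPM, lowest before confluence.

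Skin equivalents were also set against the subconfluent library, in a fit of all 8 libraries. The fit assumes that a single library varies like the replicated groups, and it shares the skin equivalents with the comparison above. Of 8 members tested, 3 were called higher and 0 lower, where 9.15% and 13.3% of all 15019 features were called higher and lower. Krt78L2 averaged 21746 CPM in skin equivalents and had 191 CPM in the subconfluent library (log2 fold change 6.83 ± 1.28, adjusted p = 0.0114). Krt78L3 averaged 24619 CPM in skin equivalents and had 81.4 CPM in the subconfluent library (8.24 ± 1.38, adjusted p = 0.00761). Krt78LT had 0 counts in the subconfluent library, and its mean in skin equivalents was at least 103-fold higher, taking 3 counts as the floor of that library (adjusted p = 0.00997). It passed the filter through the skin equivalents here too, as did Krt78LC1 and Krt78LC3. For these members only a rise could be called, so the count of 0 lower says nothing about them.

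Of the 23 other keratins tested, 5 rose and 7 fell. The other 5 Krt78L features did not pass. The subconfluent value of Krt78L1, 14.6 CPM, lay within the range of the skin equivalents (12.8 to 39.9 CPM), with a log2 fold change of 0.84 (95% interval -1.61 to 3.28, adjusted p = 0.585). The subconfluent value of Krt78L4, 462 CPM, also lay within their range (35.0 to 1284 CPM). Its log2 fold change was 0.06 (95% interval -3.83 to 3.94, adjusted p = 0.988), and it was -2.56 without skin equivalent 2 (adjusted p = 0.1). For Krt78LC1, Krt78LC2 and Krt78LC3 the subconfluent library had 1, 43 and 12 counts, and their adjusted p-values were 0.179, 0.795 and 0.615.

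Set against the monolayers, in the same fit of 8 libraries, the subconfluent library had 0 members called by edgeR, where 0.606% of all features were called higher and 0.726% lower. At an unadjusted p under 0.05 there were 2 of 8, Krt78L1 and Krt78L2, as were 23.4% of all features. DESeq2 called the same 2, where it called 12% of all features. Krt78LT, Krt78LC1 and Krt78LC3 passed the filter through the skin equivalents, which are not compared here. They had 0, 1 and 12 counts in the subconfluent library and at most 5 in any monolayer, so they could hardly be called. No result about the members is drawn from the share of 2 of 8. Krt78L1 had 14.6 CPM in the subconfluent library, against 52.7 to 375 CPM in monolayers (log2 fold change -4.13 ± 1.29, adjusted p = 0.120). Without monolayer 1 the log2 fold change of Krt78L1 was -4.73 and that of Krt78L2 was 2.06, and edgeR called both (adjusted p = 0.0411 and 0.0482), where 4.57% of all features were called.

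Krt78L2, Krt78L3 and Krt78L4 lay above all 3 monolayers in the subconfluent library. Krt78LC3 did too, at 0.323 CPM against 0 to 0.143 CPM. The share of all features that did so was not counted, so no result about the members is drawn from it. Krt78L2 had 191 CPM there, against 8.18 to 46.8 CPM in monolayers (log2 fold change 2.63 ± 0.77, adjusted p = 0.106). Krt78L3 had 81.4 CPM, against 6.77 to 39.7 CPM (1.54 ± 0.79, adjusted p = 0.280), and Krt78L4 had 462 CPM, against 17.6 to 79.9 CPM (3.21 ± 1.5, adjusted p = 0.246). Of the 23 other keratins tested, 0 were called by edgeR, and 13 had an unadjusted p under 0.05, as did 23.4% of all features.

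Fibroblasts gave the lower end of each member's range. The fibroblast library had 1 count for Krt78L2 and 0 counts for the other 7 members, where 3 counts correspond to 0.116 CPM. The members passed the filter on low counts through keratinocyte libraries, so only a lower level in fibroblasts could be called. Krt78L1, Krt78L3, Krt78L4 and Krt78LC2 were thus at least 2210-fold, 241-fold, 430-fold and 10.6-fold lower in fibroblasts than in monolayers, and Krt78L2 was 830-fold lower with a 95% counting interval of 149 to 32800. All 5, like 20 of the 23 other keratins, were called lower, where 23% of all features were called lower, 21.5% higher and 44.5% in either direction, and with scaling by total counts 28.7% were called lower and 17.6% higher. The calls of Krt78L4 (adjusted p = 0.0398) and Krt78LC2 (adjusted p = 0.0471) were lost without any one of the 3 monolayers, that of Krt78LC2 also without skin equivalent 1, and that of Krt78L4 also with no filter on low counts. Krt78LT, Krt78LC1 and Krt78LC3 were at or under the floor in fibroblasts and in the monolayer means, so no fold is given. The fibroblast library also had the most ambiguous fragments, 2.53% against 0.485% to 0.571% in monolayers, and their part in these values was not tested.

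Across the 4 groups, the order of levels for Krt78L2 and Krt78L3 was skin equivalents, subconfluent keratinocytes, monolayers and fibroblasts. The subconfluent and fibroblast groups are single libraries, and edgeR did not call the step from subconfluent library to monolayers in the fit of all 8 libraries. The share of all features with such an order was not counted, so the order is only described. For Krt78L1 the monolayers came first, followed by the skin equivalents and the subconfluent library, whose levels overlapped, and fibroblasts. For Krt78L4 the skin equivalents spanned both the subconfluent library and the upper monolayers. For Krt78LC2 the skin equivalents spanned the levels of all the other keratinocyte libraries.

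The family's place among the type II keratins also differed. Krt78L features held 73.8%, 71.4% and 78.2% of all type II keratin counts in skin equivalents 1 to 3, against 0.977%, 4.10% and 4.46% in monolayers 1 to 3, and 2.43% in the subconfluent library. The mean was 74.4% ± 3.47 in skin equivalents and 3.18% ± 1.91 in monolayers (SD, n = 3 each, exact permutation p = 0.1, the smallest possible). Taken over all type II names, the share of gene counts was 5.85% ± 1.11 in skin equivalents and 1.217% ± 0.263 in monolayers. The rise of Krt78L equalled 93.1% of this net difference in means. Changes among the other type II names were opposed and partly cancelled. The mean share of Krt5L was 1.481% in skin equivalents and 0.8025% in monolayers, while Krt7 and Krt80 were called lower in skin equivalents.

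Krt5L1, named after the basal keratin 5, took the most counts of the other type II names in skin equivalents, at 15373 ± 3274 CPM against 2032 ± 1038 CPM in monolayers (log2 fold change 2.93 ± 0.49, adjusted p = 0.00291). Krt5L2 averaged 559 CPM in skin equivalents, 15307 CPM in the subconfluent library and 4257 CPM in monolayers, and took the most of these counts in the subconfluent library and in monolayers. In fibroblasts Krt7 took the most, at 23.9 CPM. Of 7 other type II features tested between skin equivalents and monolayers, 1 rose and 5 fell. Of all features tested there, 25.9% were called higher and 23.6% lower. The keratins of simple epithelia, Krt7, Krt8, Krt18, Krt19 and Krt20, had a summed level of 79.3 to 103 CPM in skin equivalents, 1677 in the subconfluent library, 24.4 in fibroblasts and 3121 to 5214 in monolayers.

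**Figure D4:**
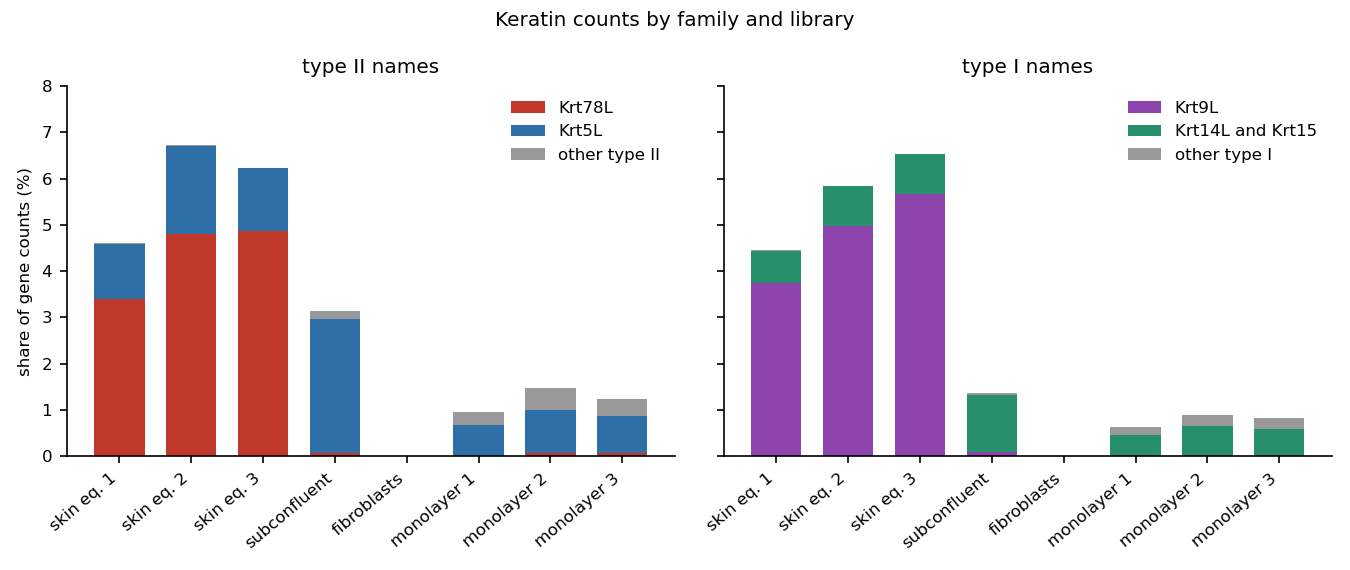
Share of gene counts (y axis, percent) taken by type II keratin names (left) and type I names (right) in the 8 libraries (x axis), stacked by family. Krt78L takes 3.40% to 4.88% in skin equivalents and at most 0.0760% elsewhere, and Krt9L is large in the same 3 libraries.

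On the type I side, Krt9L3 averaged 38734 ± 7125 CPM in skin equivalents, against 6.99 ± 4.07 CPM in monolayers, and took the most counts of the type I names in skin equivalents. The share of the 7 Krt9L features in gene counts was 4.79% ± 0.977 in skin equivalents, against 0.0176% ± 0.00262 in monolayers. The ratio of Krt78L counts to Krt9L counts was 0.908, 0.965 and 0.860 in skin equivalents 1 to 3, against 0.529, 2.97 and 3.66 in monolayers 1 to 3. It was thus close to equal in the 3 skin equivalents and spread over several-fold in the monolayers, with monolayer 1 low. Different members carried most of these counts: Krt78L2, Krt78L3 and Krt9L3 in skin equivalents, and Krt78L1, Krt9L1 and Krt9LC1 in monolayers. Counts were not divided by transcript length, so the ratio does not measure relative amounts of type II and type I keratins. The subconfluent library had a ratio of 0.794 (95% Clopper-Pearson interval 0.781 to 0.806). The mean log2 ratios were -0.14 ± 0.08 in skin equivalents and 0.84 ± 1.53 in monolayers and were not told apart (exact permutation p = 0.4, n = 3 each). The difference of means was -0.98, or -1.86 without monolayer 1, -0.61 without monolayer 2 and -0.46 without monolayer 3.

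Among type I names outside Krt9L, Krt14L1, named after the basal keratin 14, had 4332 ± 561 CPM in skin equivalents, 4642 CPM in the subconfluent library, 4.52 CPM in fibroblasts and 1613 ± 202 CPM in monolayers. Krt15, which took the most type I counts in monolayers, had 2972 ± 397 CPM in skin equivalents and 2091 ± 284 CPM in monolayers and did not pass (adjusted p = 0.119). Of 15 type I features tested between skin equivalents and monolayers, 9 rose, 4 fell and 2 did not pass. The 7 Krt9L features were among those that rose. Among all features tested there, 25.9% were called higher and 23.6% lower.

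The members differed from each other in profile over the 8 libraries. Likeness was measured as the root mean square difference of log2(CPM + 0.1), after each feature was centred on its own mean. Krt78L2 and Krt78L3 differed by 0.497, whereas Krt78L1 differed from Krt78L3 by 5.82 and from Krt78L4 by 2.93. Among 64 named features outside the family, the 3 nearest to Krt78L2 were EDCH4-EDC (1.71), Krt9LC1 (1.77) and EDWM-EDC (1.95). EDC is short for epidermal differentiation complex, a chromosomal cluster of genes for proteins of the cornified layer. Krt78L3 had the same 3 nearest features, at 1.81, 2.04 and 2.01. Among the skin equivalents, EDCH4-EDC and EDWM-EDC were highest in skin equivalent 1 (3578 and 2259 CPM). Krt78L2, Krt78L3 and Krt9LC1 were lowest there. The candidates came from the 143 features with a deposited name, among them 32 keratins along with EDC genes and corneous beta-proteins. Neighbours of these kinds were thus favoured by the list.

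Other members had other neighbours. Nearest to Krt78L1 were Krt23 (1.31), Krt80 (1.39) and Krt8 (1.45), and nearest to Krt78L4 were Krt14L2 (1.48), EDPE-EDC (1.55) and Krt14L1 (1.56). Krt78LT had LOC107055127-EDC (1.12) and the corneous beta-proteins CBP1-C (1.37) and CBP9-C (1.39), and Krt78LC2 had EDMTF4-EDC (1.13), TMED (1.44) and CBP17-F (1.61). The median difference over the 64 features was 2.34 to 5.02, depending on the member. These distances describe 8 libraries in 4 groups and carry no test.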

How the data were processed

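RNA was isolated with Trizol and sequenced as poly(A)-selected, strand-preserving, paired-end libraries, per the labels' protocols. The values deposited by the authors are raw counts for each feature and are not normalised. Software listed in the submitters' processing notes, with no stated role, was STAR 2.6.1a, DESeq2 1.22.2, RSEM and bcl2fastq 2.19.1.403. The sources used here give no genome build, annotation or strand setting, so neither coordinates nor sequences are printed. Library sizes and tests left out the 4 rows that name no gene, and 64.5% to 71.3% of fragments were given to a gene.

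The members, lists and tests were chosen with earlier results of these data known. Tests used edgeR 4.0.16 in R 4.3.3 (quasi-likelihood, robust, TMM, default expression filter, Benjamini-Hochberg adjustment over all features, threshold 0.05), tested on simulated data. Standard errors were derived from fold and test statistic. DESeq2 1.42.0, limma 3.58.1 (voom), other filters and scalings and left-out libraries were alternatives. Fold bounds take 3 counts as a floor. All 8 members were named, with other keratins as counts and the 3 nearest named profiles (mean log2 CPM of at least 0). Replicates differed beyond sampling noise, monolayers 2 and 3 the least. Their chi-square per degree of freedom was 27.04, against 171.5 to 298.7 for the other pairs within a group. In fits without monolayer 1, the spread among monolayers comes from this pair.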

Additional observations from a re-analysis of the deposited data

How the results depend on the processing

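Between skin equivalents and monolayers, 4 members were called (Krt78L1, Krt78L2, Krt78L3 and Krt78LT), where 6549 of 13230 features were called in all. For Krt78LT only a rise could be called. DESeq2 called 7102 features in all, and fits with 1 library left out called 5067 to 6911. The same 4 members were called by each alternative. Leaving out 1 library gave 4 to 6 calls of members, and some alternatives called up to 2 more members. Krt78LC3 was among those with no filter, in the fit of all 8 libraries and without monolayer 3 or skin equivalent 3. Krt78LC1 was among those in the fit of all 8 libraries and without skin equivalent 1. Where a filter was used, Krt78LC1 and Krt78LC3 passed it through the skin equivalents, so for them too only a rise could be called. Whether same-numbered libraries share a source is not stated, so the numbers were not taken as pairs. Same-numbered deviations correlated at -0.0564, -0.131 and 0.159 over 13230 features, and not every library correlated best with its own number. With 3 libraries per group such deviations depend on each other, so these values cannot decide whether a source is shared. With the replicate number as a block, 4 members were called (log2 fold changes of -3.02, 9.75, 10.1 and 8.50), that of Krt78LC2 was -0.30, and 5991 features were called in all, against 6549 without the block. The log2 fold change of Krt78LC2 was -0.31 with limma-voom and ranged from -1.14 to 0.92 over left-out libraries. A fit of those libraries alone whose titles hold the letters wo, chosen after seeing the data, gave 4 calls.

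For skin equivalents against the subconfluent library, 3 members were called under each alternative. There the log2 fold change of Krt78L4 was -0.058 with total counts and -2.56 to 0.60 over left-out libraries, and that of Krt78LC2 -1.05 to 1.00. For the subconfluent library against monolayers, DESeq2 called 2 members and left-out libraries gave 0 to 2, with -0.27 to 0.034 for Krt78LC2. For fibroblasts against monolayers, left-out libraries gave 3 to 5 calls of members, where 4608 to 7794 of all features were called. The cause of these shifts was not tested.

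The number of all features called between subconfluent library and monolayers was 200, but 1802 with DESeq2, 131 with total counts (34 higher and 97 lower), 683 without monolayer 1, 1 without monolayer 2, 0 without monolayer 3, 45 without skin equivalent 2 and 5 without skin equivalent 3, so percentages of called features there rest on the setting. Between skin equivalents and the subconfluent library it was 3374, and 2069 to 4694 over left-out libraries (2121 without monolayer 3 and 2069 without skin equivalent 3). The difference in family share was 4.06 to 4.79 percentage points over left-out libraries and 0.0164 without Krt78L2 and Krt78L3, which was chosen after seeing the data. That in the type II share was 69.4 to 72.8. The difference in mean log2 ratio, skin equivalents minus monolayers, ranged over left-out libraries from -1.86 to -0.46 for Krt78L to Krt9L. For Krt78L2 to Krt78L3 this difference ranged from -0.60 to -0.23. Members with under 3 counts per library in a group cannot be told apart from 0 at this depth.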
